A study of Mus musculus with 4 samples.

Results

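Osteopontin and the adhesion receptors that neural progenitor cells carry were followed across the deposited table by gene symbol. The set holds 9 genes of 13881 in the table: Spp1, which encodes osteopontin, the integrin alpha subunit genes Itga4, Itga5, Itga6 and Itgav, the integrin beta subunit genes Itgb1, Itgb5 and Itgb8, and Cd44. Spp1 and Itga4 were chosen by their log2 fold change in the shRybp comparison, where they were among the genes with the largest rises, and the other integrins and Cd44 were added to be read beside them. The difference between the groups is therefore given for these genes as a description, with its standard error and without a p-value.

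RNA was sequenced from cultured neural progenitor cells, taken from embryonic day 14 forebrain of the mouse strain C57bl/6 and expanded in a proliferation medium with 2% B27, 20 ng/ml EGF and 20 ng/ml FGF-2. The shRybp group (2 libraries) had been infected with a lentivirus carrying a short hairpin RNA against Rybp, a Polycomb protein, and the ctrl group (2 libraries) is its control, whose vector the labels used here leave unnamed. The labels do not say whether replicates were separate cultures, infections or embryos, so errors and p-values cover only variation among these libraries, part or all of which can be technical. The comparison asks what changes in dividing progenitors when Rybp is depleted.

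Osteopontin is a secreted, acidic matrix glycoprotein that cells bind through integrins and that has been described as a ligand of Cd44. An integrin is a pair of 1 alpha and 1 beta subunit, and the pair sets which ligand is bound: alpha 4, alpha 5 and alpha 6 can pair with beta 1, while beta 5 and beta 8 pair with alpha v. In the ventricular zone of the developing forebrain, integrins hold progenitors to laminins and other matrix proteins, and alpha v beta 8 releases active TGF-beta from its latent form.

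Total counts were between 14355308 and 17598873 per library. Rybp itself was at 3.01 and 2.66 FPKM (reads scaled by gene length and by library size) in shRybp, against 4.43 and 3.95 FPKM in ctrl. By the edgeR fit of the counts, 65.8% of the ctrl level remained (log2 fold change -0.60, SE 0.12). Of 10 progenitor markers 10 had a row in the table, with a summed level of 2562 to 2650 FPKM in shRybp and 3112 to 3375 FPKM in ctrl, most of it from Fabp7 (1468 and 1351 FPKM in shRybp, 2210 and 1982 FPKM in ctrl), while Pax6 was between 3.37 and 3.59 FPKM and Prom1 under 1 FPKM. In bulk RNA, fewer cells of a type and less RNA per cell cannot be told apart.

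The largest differences were in the ligand and in alpha 4. Spp1 had 19.5 and 22.1 FPKM in shRybp, against 4.54 and 4.67 FPKM in ctrl, from 463 and 598 counts in shRybp and 132 and 123 counts in ctrl. Both shRybp libraries were far above both ctrl libraries, and the difference was 4.41-fold (edgeR log2 fold change 2.14, SE 0.11). Spp1 lies on mm10 chromosome 5, from 104435118 to 104441050 on the plus strand. Over 1252 bases it overlaps Gm42793 on the same strand, and reads there could come from either gene. Gm42793 has no row among those analysed here. Itga4, the subunit that with beta 1 binds Vcam1, fibronectin and osteopontin, had 9.04 and 7.94 FPKM in shRybp, against 1.81 and 1.92 FPKM in ctrl. Its counts were 1817 and 1823 in shRybp and 446 and 429 in ctrl, a 4.44-fold difference (edgeR log2 fold change 2.15, SE 0.09). By fitted log2 fold change Itga4 stood at rank 1 and Spp1 at rank 2 of 12062 genes tested, the property by which they were chosen. The last 2581 bases of Itga4 (mm10 chromosome 2, from 79255426 to 79333123, plus strand) overlap Cerkl on the opposite strand, and without knowing the strand, reads there could come from either gene. Cerkl has no row among those analysed here.

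Itga5, which with beta 1 forms the main fibronectin receptor, was also higher. It had 783 and 1219 counts in shRybp and 629 and 636 counts in ctrl, which is 11.0 and 15.0 FPKM in shRybp, against 7.23 and 8.07 FPKM in ctrl (edgeR log2 fold change 0.74, SE 0.12). The groups did not overlap, but the shRybp libraries lay further apart than for any other member relative to their mean, and the log2 fold change was 0.50 without shRybp replicate 2 and 0.94 without shRybp replicate 1.

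Cd44, a receptor for hyaluronan, differed less. Its level was 10.5 and 9.35 FPKM in shRybp, against 7.74 and 7.74 FPKM in ctrl (edgeR log2 fold change 0.32, SE 0.08). Without shRybp replicate 1 the log2 fold change was 0.23 and no longer past the threshold of the fit. Counts are per gene, so the spliced forms of Cd44 were not resolved.

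Itgb8 went the other way. It had 17.2 and 15.5 FPKM in shRybp, against 40.6 and 38.1 FPKM in ctrl, from 2740 and 2810 counts in shRybp and 7920 and 6729 counts in ctrl. Both shRybp libraries were far below both ctrl libraries, and the level was 2.47-fold lower in shRybp (edgeR log2 fold change -1.30, SE 0.07). By size this was rank 51 among the falls. Itgb8 lies on mm10 chromosome 12, from 119158022 to 119238802 on the minus strand.

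The remaining 4 subunits differed little. Itgb1, the common partner of most alpha subunits, had 241 and 232 FPKM in shRybp, against 216 and 207 FPKM in ctrl (edgeR log2 fold change 0.12, SE 0.06, 95% interval -0.02 to 0.27). Itga6, a laminin receptor subunit, had 30.9 and 30.9 FPKM in shRybp, against 32.4 and 30.4 FPKM in ctrl (edgeR log2 fold change -0.06, 95% interval -0.19 to 0.07). These values overlapped. Itgav, the alpha subunit that beta 5 and beta 8 need, had 23.3 and 22.9 FPKM in shRybp, against 23.4 and 23.6 FPKM in ctrl (edgeR log2 fold change -0.06, 95% interval -0.19 to 0.06). Itgb5, whose pair with alpha v binds vitronectin, had 20.3 and 23.4 FPKM in shRybp, against 20.5 and 20.8 FPKM in ctrl (edgeR log2 fold change 0.05, 95% interval -0.13 to 0.22). Its shRybp libraries lay on both sides of the ctrl libraries, and the log2 fold change was -0.06 without shRybp replicate 2.

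**Figure D1:**
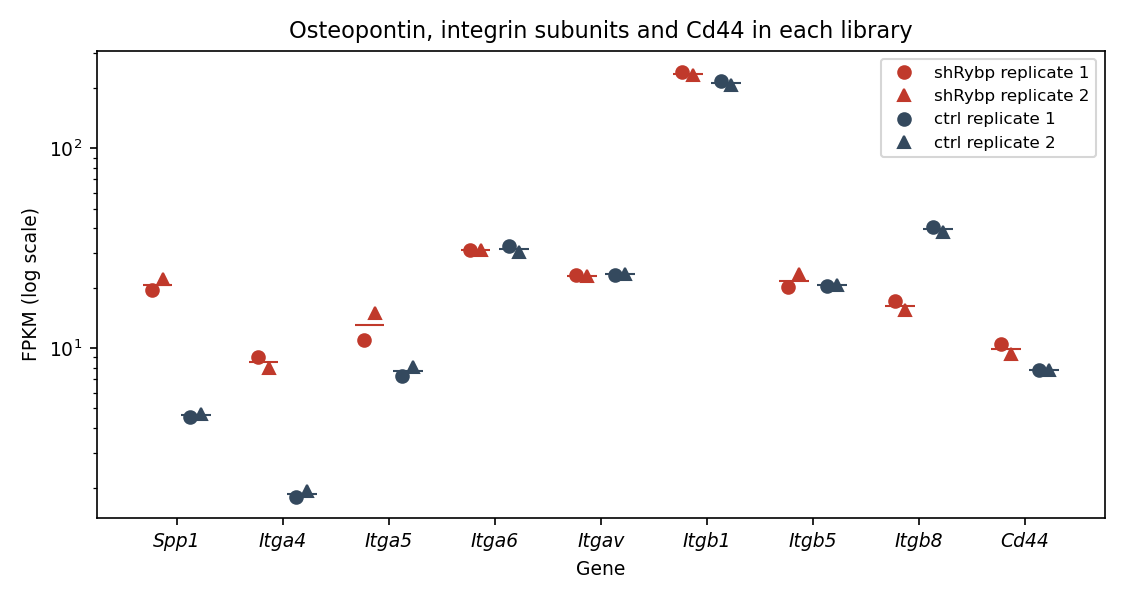
FPKM of each gene in each library on a log axis, with shRybp libraries in red and ctrl libraries in dark grey; circles are replicate 1, triangles replicate 2 and short lines the mean of a group. Spp1 and Itga4 sit far higher in shRybp (Spp1 at 19.5 and 22.1 FPKM, against 4.54 and 4.67 FPKM in ctrl), Itgb8 sits lower, and Itga6, Itgav and Itgb5 lie almost level.

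All 9 genes were above the level tested (at least 1 FPKM as the mean of the 4 libraries) and also above 1 FPKM in every library. Of the 9 genes, 4 were past the threshold of the fit and higher in shRybp (Spp1, Itga4, Itga5 and Cd44), where 16.3% of all genes tested were, and 1 was lower (Itgb8), where 16.7% were. In either direction this makes 5 of 9, beside 33.0% of all genes tested. Libraries of the groups did not overlap in 7 of the 9 genes (67.5% of all genes tested), with 5 higher in shRybp (38.5% of all) and 2 lower (29.0% of all). The choice of members used this contrast, so nothing is read from these counts.

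**Figure D2:**
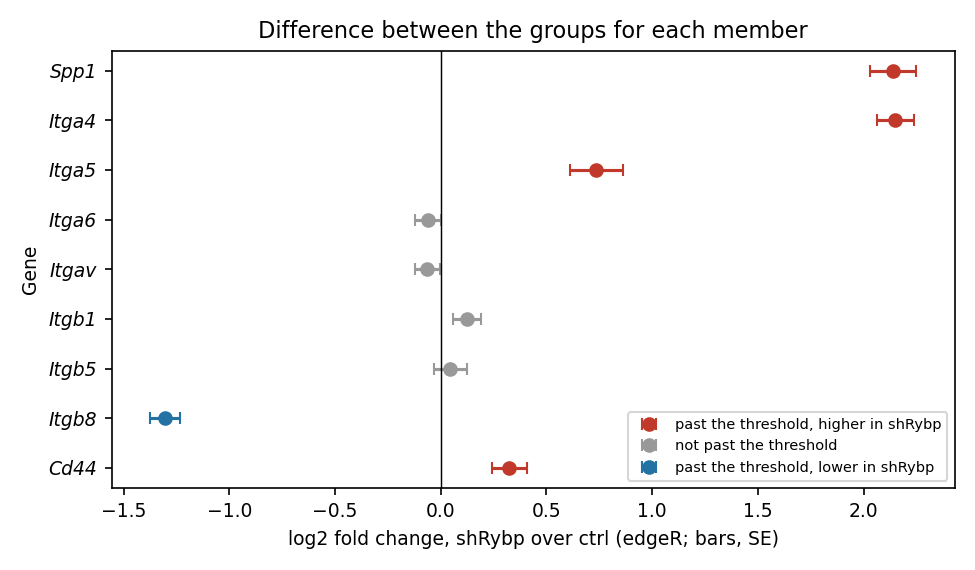
Log2 fold change of shRybp over ctrl for each gene from the edgeR fit, with bars of 1 SE; red points were past the threshold and higher in shRybp, blue lower, grey not past it. Itga4 (2.15) and Spp1 (2.14) lie together at the right, Itgb8 (-1.30) stands alone at the left, and 4 integrin subunits lie near 0.

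Within each group the genes were ordered by level. In shRybp, Itgb1 was highest at 236 ± 6.53 FPKM (SD, n = 2), followed by Itga6, Itgav, Itgb5, Spp1, Itgb8, Itga5, Cd44 and Itga4. In that order the libraries of Itgav and Itgb5 overlapped, as did those of Itgb5 and Spp1. In ctrl, Itgb1 was also highest, at 212 ± 6.44 FPKM (SD, n = 2), followed by Itgb8, Itga6, Itgav, Itgb5, Cd44, Itga5, Spp1 and Itga4. There the libraries of Cd44 and Itga5 overlapped. Itgb8 thus stood at place 6 in shRybp, against place 2 in ctrl, and Spp1 at place 5 in shRybp, against place 8 in ctrl. Itga4 was the lowest in both groups. Among all genes tested, the mean level of Spp1 exceeded that of 78.6% of genes in shRybp, against 32.3% in ctrl, and Itga4 exceeded 51.4% in shRybp, against 9.34% in ctrl. These shifts of Spp1 and Itga4 restate the differences by which both genes were chosen, and are a description.

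Integrin messages were also compared within each library, which removes the scaling between libraries. Of 18 alpha subunit genes, 12 had a row in the table. Itga4 made up 10.4% and 8.71% of their summed FPKM in shRybp, against 2.33% and 2.43% in ctrl. Itga6, the largest alpha component, made up 35.4% and 33.9% in shRybp, against 41.8% and 38.5% in ctrl. Itga6 exceeded Itga4 by 3.42 and 3.90 times in shRybp, against 17.9 and 15.8 times in ctrl. Of 9 beta subunit genes, 4 had a row. Itgb8 made up 6.18% and 5.71% of their summed FPKM in shRybp, against 14.6% and 14.3% in ctrl, and Itgb1 made up 86.4% and 85.6% in shRybp, against 77.8% and 77.7% in ctrl. Among the partners of alpha v, Itgb8 stood at 0.85 and 0.66 times the level of Itgb5 in shRybp, against 1.98 and 1.83 times in ctrl. The summed level of alpha subunits was 87.2 and 91.1 FPKM in shRybp, against 77.5 and 79.0 FPKM in ctrl. The share of Itga6 was taken of this larger sum in shRybp, and its own FPKM overlapped between the groups. The summed level of beta subunits was 279 and 271 FPKM in shRybp, against 278 and 266 FPKM in ctrl. The Itga4 share and the ratio of Itga6 to Itga4 restate the difference by which Itga4 was chosen, and are a description. All these values are of messages and do not give the amounts of paired receptors at the cell surface.

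**Figure D3:**
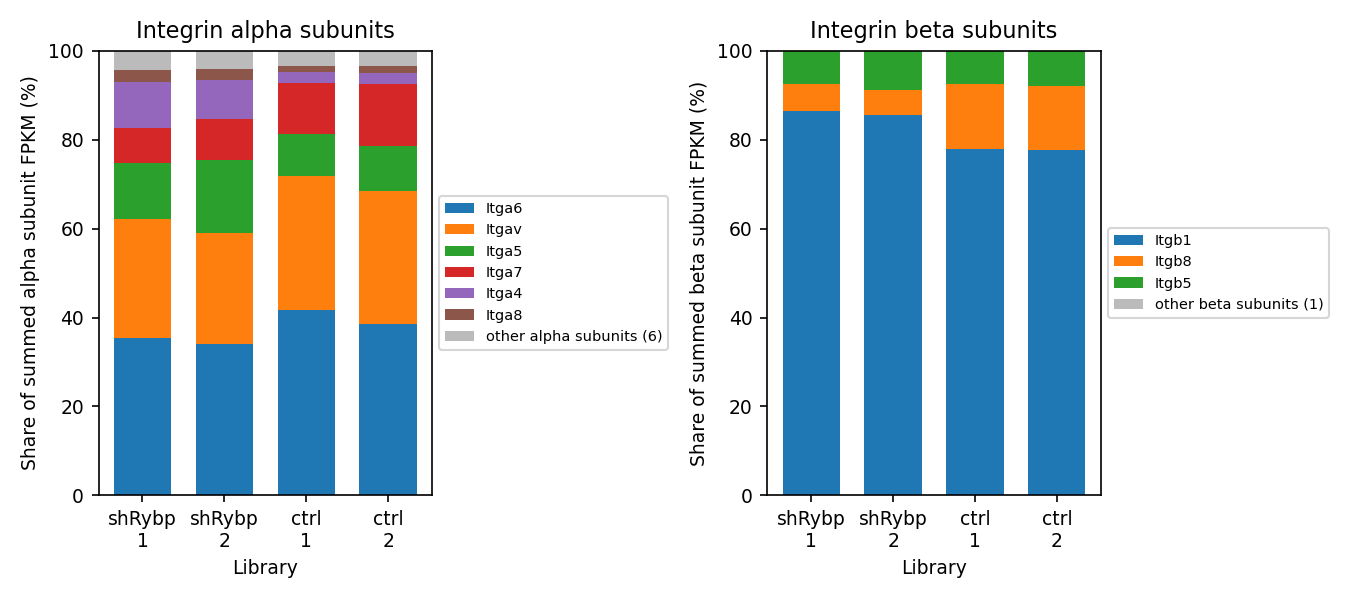
Share of each gene in the summed FPKM of the integrin alpha subunits (left) and beta subunits (right), in percent, for each library; grey holds the subunits under 2% in every library. The Itga4 band is wider in shRybp (10.4% and 8.71%) than in ctrl (2.33% and 2.43%), and the Itgb8 band is narrower in shRybp.

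Other subunits were few. Of 14 other alpha subunit genes 8 had a row and 2 were tested, of which 1 rose and 1 fell. Itga8, whose pair with beta 1 binds nephronectin and osteopontin, rose, with 254 and 266 counts in shRybp, against 143 and 132 counts in ctrl (edgeR log2 fold change 1.01, SE 0.13, adjusted p = 7.9e-05). Itga7, a laminin receptor subunit, fell, with 6.87 and 8.33 FPKM in shRybp, against 9.02 and 11.1 FPKM in ctrl (edgeR log2 fold change -0.43, SE 0.10, adjusted p = 0.0070), and the call was lost in limma (adjusted p = 0.066 with a pseudocount of 0.1). Itga9, which with beta 1 binds osteopontin at the same stretch as alpha 4, was below the level tested, with 128 and 143 counts in shRybp and 42 and 49 counts in ctrl, and is named after its values were seen. Of 6 other beta subunit genes only Itgb3, the classical osteopontin receptor partner of alpha v, had a row, with 31 and 25 counts in shRybp and 43 and 36 counts in ctrl. The leukocyte subunits Itgal, Itgam, Itgax and Itgb2 had none.

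Osteopontin belongs to a family of acidic matrix proteins clustered in the genome. Its relatives Ibsp, Dmp1, Mepe and Dspp had no row, so Spp1 was the member of that family with a level here.

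Other ligands of these integrins moved in both directions. Of 10 tested, 3 rose and 3 fell, with a median log2 fold change of 0.19. Over all genes tested 16.3% rose and 16.7% fell, with a median of 0.00, and the counts of this and the following lists stand beside those shares. Without ctrl replicate 2 the number of ligands that rose was 5, and with the replicate block 6. Vcam1, the cell surface ligand of alpha 4 beta 1, fell, with 3.30 and 3.51 FPKM in shRybp, against 8.32 and 7.86 FPKM in ctrl (edgeR log2 fold change -1.28, SE 0.09, adjusted p = 5.3e-07). The change of Vcam1 was opposite in sign to that of Itga4. Fn1, which encodes fibronectin, did not pass, at 5.79 and 7.06 FPKM in shRybp and 4.88 and 6.28 FPKM in ctrl (edgeR log2 fold change 0.17, 95% interval -0.07 to 0.42, adjusted p = 0.27). Npnt, which encodes nephronectin, rose, with 23.7 and 24.8 FPKM in shRybp, against 13.2 and 14.0 FPKM in ctrl (edgeR log2 fold change 0.80, SE 0.07, adjusted p = 3.7e-06). Mfge8, a ligand of alpha v beta 5, fell by 0.89 on the log2 scale (SE 0.07, edgeR adjusted p = 1.9e-06). The microfibril gene Fbn1 rose by 1.17 (SE 0.07, edgeR adjusted p = 2.5e-07), the tenascin gene Tnc rose by 0.21 (not without shRybp replicate 2 or either ctrl replicate) and the junction adhesion gene Jam2 fell by 0.28. Ccn1 did not pass (edgeR log2 fold change -0.16, adjusted p = 0.50).

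Of 5 laminin chain genes tested, 3 rose and 0 fell, with a median log2 fold change of 0.29. Lamc1, the gamma chain of most laminins, had 31.2 and 33.5 FPKM in shRybp, against 22.1 and 21.8 FPKM in ctrl (edgeR log2 fold change 0.52, SE 0.06, adjusted p = 5.0e-05). Lama5 (0.45) and Lama4 (0.29) rose too. Lama4 lost the call without shRybp replicate 1, and both lost the call in DESeq2, in limma and without shRybp replicate 2 or ctrl replicate 1, which left 1 laminin gene that rose. Lamb2 (edgeR log2 fold change 0.12) and Lamb1 (-0.26, edgeR adjusted p = 0.061) did not pass, though Lamb1 passed as lower without shRybp replicate 2 and with the replicate block. Itga6, a receptor subunit for laminins, lay level between the groups as given above.

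Around Itgb8, the genes of latent TGF-beta were tested as a list. Of 8, 2 rose and 0 fell, with a median log2 fold change of 0.26. Ltbp1, which tethers latent TGF-beta to the matrix, rose, with 8.02 and 8.23 FPKM in shRybp, against 3.29 and 3.93 FPKM in ctrl (edgeR log2 fold change 1.14, SE 0.09, adjusted p = 1.9e-06). Tgfbr2, a receptor subunit, was under 1 FPKM in both ctrl libraries and reached the level tested through shRybp, so its log2 fold change of 0.95 is given without a p-value, and it is 1 of the 2 counted. Ltbp4 (edgeR log2 fold change 0.28, adjusted p = 0.051) and Tgfbr1 (-0.05, edgeR adjusted p = 0.66) did not pass, and without ctrl replicate 2 the number that rose was 4. Tgfb1 had no row.

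Inside the cell, integrins are switched on and tied to actin by adaptor proteins. Of 28 activator and adaptor genes tested, 9 rose and 4 fell, with a median log2 fold change of 0.15 (16.3% rose and 16.7% fell over all genes tested). Flna, which encodes an actin cross-linking protein, was among those that rose, at 47.9 and 54.2 FPKM in shRybp, against 27.9 and 31.8 FPKM in ctrl (edgeR log2 fold change 0.74, SE 0.08, adjusted p = 1.8e-05). The focal adhesion gene Zyx rose by 0.79 (edgeR adjusted p = 4.4e-05) and the tensin gene Tns2 by 0.54, which lost the call in DESeq2 and without shRybp replicate 2. Fermt2, which encodes the integrin activator kindlin-2, fell, with 55.7 and 52.8 FPKM in shRybp, against 75.4 and 73.1 FPKM in ctrl (edgeR log2 fold change -0.49, SE 0.06, adjusted p = 8.7e-05). Kank1 (-0.66) and the docking protein gene Nedd9 (-0.51) fell as well. Lims2 (-2.16) lies over Gpr17 on the opposite strand, so its value is uncertain, and it was under 1 FPKM in both shRybp libraries. It reached the level tested through ctrl (1.65 and 2.07 FPKM) and is 1 of the 4 counted as lower. Ilk (edgeR log2 fold change 0.16, adjusted p = 0.062) and Rap1a (0.15, edgeR adjusted p = 0.13) did not pass. Ilk passed in 5 of 13 alternatives (library totals, upper quartile scaling, both limma fits and the replicate block). Rap1a passed with the replicate block. Over 3533 of its 6334 bases Ilk overlaps Taf10, and over 794 bases Rrp8, both on the opposite strand, so its value is uncertain. Without shRybp replicate 2, 18 rather than 26 members of all these partner lists rose.

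Of 22 adhesion kinases and their partners, 4 rose and 5 fell, with a median log2 fold change of -0.04 (16.3% rose and 16.7% fell over all genes tested). Ptk2, which encodes focal adhesion kinase, had 17.9 and 17.8 FPKM in shRybp, against 14.9 and 14.8 FPKM in ctrl (edgeR log2 fold change 0.23, SE 0.06, adjusted p = 0.0086), and was just over the threshold without ctrl replicate 2 (edgeR adjusted p = 0.0501). The Src inhibitor gene Csk rose by 0.31, Elmo2 by 0.33 and Git1 by 0.24, and without shRybp replicate 2 only 1 gene of the list rose, and 2 without either ctrl replicate. Those that fell included the Src family genes Fyn (-0.37) and Yes1 (-0.51), the exchange factor gene Arhgef7 (-0.72, edgeR adjusted p = 8.3e-06) and the GTPase gene Rhoa (-0.39). The GTPase genes Cdc42 (edgeR log2 fold change -0.01) and Rac1 (-0.07) did not pass.

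Cd44 is tied to actin by ezrin, radixin and moesin and cut by Adam10. Of 9 genes of that kind, 2 rose and 1 fell, with a median log2 fold change of -0.04. Msn, which encodes moesin, had 172 and 176 FPKM in shRybp, against 125 and 123 FPKM in ctrl (edgeR log2 fold change 0.46, SE 0.06, adjusted p = 0.00016). Adam10 rose by 0.27 and the scaffold gene Iqgap1 fell by 0.54, while Rdx (edgeR log2 fold change -0.09) and Slc9a3r1 (0.02) did not pass. Of 10 genes of hyaluronan, the sugar that Cd44 binds, 2 rose and 3 fell, with a median log2 fold change of 0.11 and a mean of -0.11, of opposite sign. Has2, the synthase gene, had 1.00 and 0.80 FPKM in shRybp, against 1.62 and 2.20 FPKM in ctrl (edgeR log2 fold change -1.12, SE 0.20), reached the level tested through ctrl, is 1 of the 3 counted as lower, and overlaps the antisense gene Has2os. The brain matrix proteoglycan genes Ncan (213 and 219 FPKM in shRybp, against 401 and 442 FPKM in ctrl; edgeR adjusted p = 1.1e-06) and Bcan (edgeR log2 fold change -0.48) fell, and Hmmr (0.42) and the hyaluronidase gene Cemip2 (0.37) rose. Vcan (edgeR log2 fold change -0.12) and Tnfaip6 (0.18) did not pass.

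**Figure D4:**
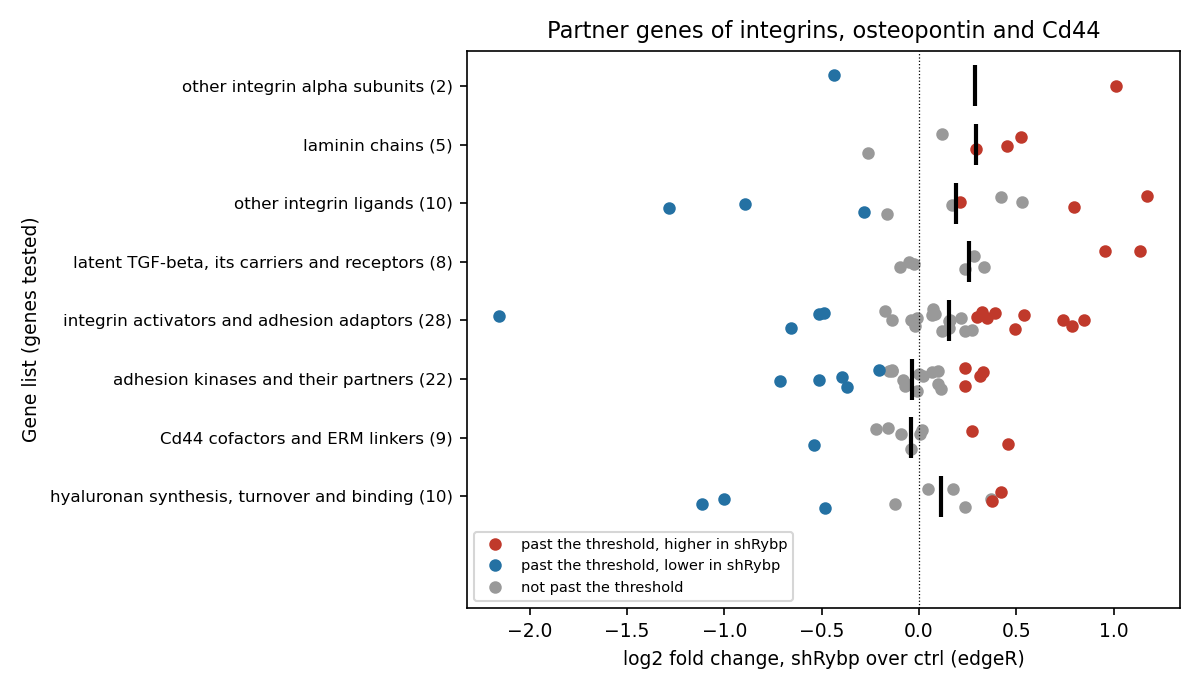
Log2 fold change of shRybp over ctrl for each tested gene of the partner lists, 1 point a gene, with vertical bars at the median of a list; red points rose, blue points fell and grey points did not pass. Every list of 9 or more genes holds points on both sides of 0, and list medians lie between -0.04 and 0.29.

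Markers of microglial, mesenchymal and endothelial cells were near the bottom of the table. Of 16 markers of microglia and macrophages 4 had a row, with a summed level of 2.96 to 4.62 FPKM in shRybp and 1.21 to 3.64 FPKM in ctrl, and the defining genes Aif1, Cx3cr1, Tmem119, C1qa, Tyrobp and Ptprc had none. Cd68, the member of that list that was tested, had 1.66 and 2.32 FPKM in shRybp, against 1.04 and 1.44 FPKM in ctrl, and did not pass (edgeR log2 fold change 0.66, adjusted p = 0.10). P2ry12 was at 0.44 and 0.62 FPKM in shRybp and 0.13 and 0.44 FPKM in ctrl, and Ctss at 2.00 and 0 FPKM in shRybp and 0 and 1.25 FPKM in ctrl. Of 10 mesenchymal and pericyte markers 3 had a row (3.07 to 3.36 FPKM summed in shRybp, 2.18 to 2.22 FPKM in ctrl), with none for Col1a1, Col3a1, Pdgfrb and Lum, and Acta2 rose (edgeR log2 fold change 0.69), a call lost in DESeq2 and without shRybp replicate 1 or ctrl replicate 2. Of 8 endothelial markers 2 had a row, at 0.68 to 0.69 FPKM summed in shRybp and 0.56 to 0.76 FPKM in ctrl. Of 7 astrocyte markers tested, 7 fell, beside 16.7% of all genes tested. The summed level of astrocyte markers was 231 to 250.4 FPKM in shRybp and 589 to 602 FPKM in ctrl. Of 6 oligodendrocyte precursor markers 3 fell and 0 rose (719 to 772 FPKM summed in shRybp, 797 to 811 FPKM in ctrl), of 9 progenitor markers 2 rose and 5 fell, and of 5 neuron markers 2 rose and 1 fell (313 to 329 FPKM summed in shRybp, 206 to 229 FPKM in ctrl). Most of the neuron sum was Gap43 (259 and 250 FPKM in shRybp, 158 and 135 FPKM in ctrl), while Map2 did not pass (edgeR log2 fold change -0.18). Dcx, the neuron marker that fell, was under 1 FPKM in both shRybp libraries and reached the level tested through ctrl. The part of these cell types in the values of the adhesion genes was not tested.

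The genes whose profile over the 4 libraries lay nearest to that of Spp1 were Hmcn1, Itga4 and Tmem173, at Euclidean distances of 0.21, 0.26 and 0.47 on the centred log2 scale. Those nearest to Itga4 were Hmcn1, Spp1 and Tmem173, at 0.06, 0.26 and 0.45. Hmcn1 encodes the matrix protein hemicentin-1 and was at 2.32 and 2.14 FPKM in shRybp, against 0.49 and 0.51 FPKM in ctrl. It was thus under 1 FPKM in both ctrl libraries and reached the level tested through shRybp. With 4 libraries in 2 groups, likeness is mostly the size of the group difference.

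Promoter windows were compared as a property that the choice did not use, although the members were sorted by the contrast that it did use. RefSeq (GRCm38.p6) gave 300 bases for 8 of the 9 genes, from 250 before to 50 after a transcript start, and Itga6 had no entry. The windows of Spp1, Itga4, Itgb8 and Itgb1 are shown because they hold the largest rises, the fall and the most abundant level-lying subunit. Each runs 5′ to 3′ on the strand of its gene, with CpG dinucleotides in capitals, the bases on which DNA methylation and CpG-binding Polycomb complexes act. The windows are chr5:104434861-104435160 (plus strand) for Spp1, chr2:79255176-79255475 (plus strand) for Itga4, chr12:119238227-119238526 (minus strand) for Itgb8 and chr8:128685404-128685703 (plus strand) for Itgb1. For Itgb8 the RefSeq start used is at 119238276, while GENCODE places the 5′ end of the gene at 119238802. The Itgb8 window thus lies wholly inside the gene and does not reach that end.
Spp1: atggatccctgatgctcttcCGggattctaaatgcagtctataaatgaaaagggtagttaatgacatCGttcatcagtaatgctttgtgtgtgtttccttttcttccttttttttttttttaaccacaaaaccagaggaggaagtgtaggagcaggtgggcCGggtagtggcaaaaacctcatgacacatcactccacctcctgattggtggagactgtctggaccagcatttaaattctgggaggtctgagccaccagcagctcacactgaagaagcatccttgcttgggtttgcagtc
Itga4: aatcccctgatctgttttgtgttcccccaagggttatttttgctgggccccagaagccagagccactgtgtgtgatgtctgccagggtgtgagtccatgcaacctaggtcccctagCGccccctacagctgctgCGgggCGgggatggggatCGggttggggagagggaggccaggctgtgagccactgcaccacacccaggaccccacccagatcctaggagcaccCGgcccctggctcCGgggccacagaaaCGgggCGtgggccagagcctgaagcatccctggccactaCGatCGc
Itgb8: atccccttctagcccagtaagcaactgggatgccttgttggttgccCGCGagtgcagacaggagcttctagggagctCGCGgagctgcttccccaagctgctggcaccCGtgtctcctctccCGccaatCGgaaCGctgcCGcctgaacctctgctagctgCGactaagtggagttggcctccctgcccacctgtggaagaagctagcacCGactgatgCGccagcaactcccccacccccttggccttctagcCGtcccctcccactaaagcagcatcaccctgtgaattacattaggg
Itgb1: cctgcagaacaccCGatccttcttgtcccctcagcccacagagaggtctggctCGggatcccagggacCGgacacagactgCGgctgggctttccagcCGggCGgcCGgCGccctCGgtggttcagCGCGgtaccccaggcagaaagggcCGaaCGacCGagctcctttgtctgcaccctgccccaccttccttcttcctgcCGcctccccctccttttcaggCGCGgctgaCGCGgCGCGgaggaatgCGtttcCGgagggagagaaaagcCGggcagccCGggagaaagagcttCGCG

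Spp1 had 3 CpG in this window and 3 in the window of a second start, Cd44 had 6, Itga4 had 10, and Itga5 and Itgb8 had 13 each. The Itgb8 count is from the window inside the gene. The genes that were level had more, with 20 in Itgb5, 24 in Itgav and 27 in Itgb1. The median over 11321 windows of tested genes was 21, and 3.2% of those windows held fewer than Spp1, 16.7% fewer than Itga4 and 66.8% fewer than Itgb1. This split concerns 8 genes, sorted by the contrast with which members were chosen, so nothing is read from it. Over the 8851 tested genes with such a window, the shares past the threshold of the fit were closer. They were 38.1% of 1540 genes with at most 13 CpG and 35.3% of 5669 genes with at least 20 CpG. These limits come from the members and their calls, and the members are among the genes counted. Expression level was not taken into account, so the shares are a description. Large changes differed more: an absolute log2 fold change of at least 1 was in 3.77% of the former, against 1.27% of the latter. The median absolute log2 fold change was 0.23 with at most 13 CpG, against 0.18 with at least 20 CpG. By direction, 15.3% of genes with at most 13 CpG rose and 22.8% fell, while 18.8% of genes with at least 20 CpG rose and 16.6% fell. An RBPJ word, TGGGAA on either strand, was in the Cd44 window and in none of the other members' windows, where 22.7% of windows of tested genes hold it. The GC box GGGCGG, on either strand, was in the windows of Itga4, Itga5, Itgav, Itgb1, Itgb5 and Cd44, where 64.8% hold it, and the AP-1 word TGANTCA was in none, where 4.5% hold it.

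**Figure D5:**
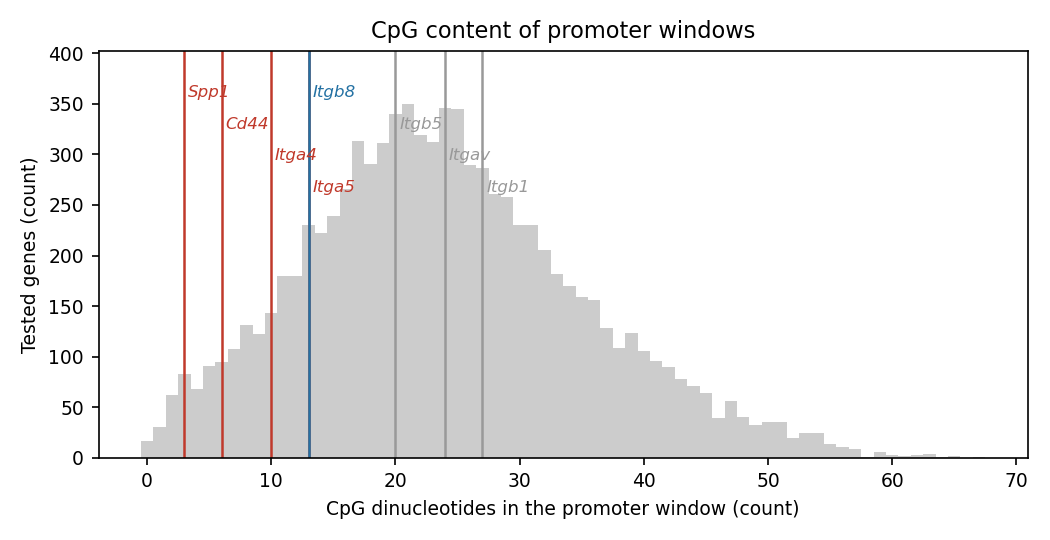
Number of tested genes by the count of CpG dinucleotides in the promoter window (the window with most CpG where a gene has several), with vertical lines at the members; red and blue lines were past the threshold and higher or lower in shRybp, grey lines were not past it. Spp1 (3), Cd44 (6), Itga4 (10), Itga5 and Itgb8 (13 each) lie left of Itgb5 (20), Itgav (24) and Itgb1 (27). The Itgb8 window lies inside the gene, away from its GENCODE 5′ end.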

How the data were processed

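Per the file headers, the deposited table holds a raw count and an FPKM value for every gene in each library; the authors left the counts unscaled and scaled FPKM by gene length and library size. Per the submitters' processing notes the reads were placed on mm10. The sources used here name no aligner, counting program or strand setting. Each gene has at least 40 counts over the 4 libraries. Loci and overlaps came from GENCODE M21 and promoter windows from RefSeq.

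Counts were fitted for 12062 genes, those whose FPKM averaged at least 1, with edgeR 4.0.16 in R 4.3.3 (TMM scaling, quasi-likelihood test, two-sided, Benjamini-Hochberg over all genes tested, threshold adjusted p 0.05). Standard errors are the absolute log2 fold change over the square root of F, and intervals are 95% intervals. The fit was tested on simulated data. Alternatives used DESeq2 1.42.0, limma 3.58.1, other scalings and filters, each library left out, and a replicate block. The members and the 10 partner and 7 marker lists were chosen with earlier results of these data known. From each partner list, up to 4 called genes in each direction with the largest change and up to 2 not called with the highest FPKM are named, except 1 that is not reported here.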

Additional observations from a re-analysis of the deposited data

How the results depend on the processing

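The 9 members kept the sign of their log2 fold change under 13 alternatives, except Itgb5, whose sign changed without shRybp replicate 2 (-0.06). Spp1 ranged from 1.96 to 2.22, Itga4 from 1.72 to 2.24 and Itgb8 from -1.39 to -1.22. Leaving out 1 library at a time gave 1296 to 1640 genes that rose, against 1970 with all 4, and 3 to 5 markers that rose. With a mean FPKM of at least 5, 3 markers rose. Without a filter on low values, Itga9 had an edgeR log2 fold change of 1.66 (SE 0.19), given without a p-value because it was named after its values were seen. Nothing in the labels pairs libraries of the same number, and deviations of same-numbered libraries correlated at 0.10. With the replicate block 2676 genes rose and 2652 fell, and the calls of the 9 members were as without it. Over these alternatives, named partner genes lost the call 25 times, gained it 16 times and never passed with the opposite sign. With 2 libraries a group, small changes are poorly resolved.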

Other observations

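Low-level genes outside the tests gave 3 further values around these receptors. They were named with their values known, from a larger number of list genes below the level tested, most of which differed less. Edil3, a matrix ligand of alpha v integrins, had 0.42 and 0.34 FPKM in shRybp, against 0.73 and 0.79 FPKM in ctrl, and Cemip, a hyaluronan-degrading gene, had 0.92 and 0.78 FPKM in shRybp, against 0.42 and 0.39 FPKM in ctrl. Csf1r, a macrophage receptor gene, had 0.53 and 0.01 FPKM in shRybp and 0.04 and 0.51 FPKM in ctrl, so that 1 library of each group held it.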
